A study of Mus musculus with 6 samples.

Results

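The genes described here are 30 genes of the smooth muscle contractile apparatus, chosen by name: filament proteins, their regulators, the anchors that tie filaments to each other and to the membrane, calcium store proteins, and the cofactor that switches many of them on. All 30 were found among the 53700 gene rows of the count table, and all 30 passed the filter on low counts that left 19127 genes for testing. The libraries came from bulk colon tumours of mice in 2 groups of 3. The APC-WT group kept endogenous expression of Tcf7l2, a transcription factor of the Wnt pathway. These mice had been on doxycycline for 10 days and were cachectic, that is, wasting. In the APC-KI group doxycycline represses Tcf7l2 throughout the body, and these mice had been on it for 6 weeks and had recovered. Both groups were fed doxycycline at 100 mg/kg in pellets, so genotype, time on the drug and state of wasting cannot be told apart. The series' own question was the role of Tcf7l2 in wasting, and the comparison asks here how the muscle genes of the tumours differ between these states.

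Smooth muscle contracts when calcium and calmodulin switch on myosin light chain kinase, which phosphorylates the regulatory light chain and lets myosin pull on actin. Its thin filaments carry tropomyosin, caldesmon and calponin, and they end in dense bodies and membrane plaques that a desmin network links. In the colon these cells form the muscle layers of the wall, the thin muscle under the mucosa and the walls of vessels. Activated fibroblasts and mural cells of small vessels make some of the same proteins. In bulk tissue, more cells of a type and more RNA per cell cannot be told apart. Per the labels' protocols the tumours were pinched off the muscle beneath them. How much of that muscle each sample carried is not given, and its part in the values below was not tested.

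The libraries held between 51777342 and 63921108 counts. Tcf7l2 was 7.39-fold lower in APC-KI tumours (41.2 ± 4.84 against 5.57 ± 1.23 CPM, read counts scaled to library size with TMM factors; SD, n = 3 each, edgeR adjusted p = 0.00124), in the direction the labels give. Y-linked genes summed to 19164 counts in APC-WT replicate 1 and 16055 in replicate 2, and all remaining libraries had 0, so the groups differ in this respect as well, and the labels do not give the sex of the animals. Nothing in the labels says whether tumours of a group came from separate animals, and p-values measure the spread between these samples.

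Of the 30 muscle genes, 21 were higher in APC-KI tumours and 0 were lower (edgeR quasi-likelihood test, adjusted p under 0.05 over all genes tested). Of all genes tested 12.5% were higher and 7.63% lower. At an unadjusted p under 0.05, 25 were higher and 0 lower, and DESeq2 and limma-voom also called 0 lower, with 24 and 23 higher. The median log2 change, APC-KI over APC-WT, was 1.72 over the 30 genes and −0.016 over all genes tested. Calls in either direction covered 20.1% of all genes tested. Over 2-fold increases were called for 19 of the 30 and over 4-fold increases for 12, against 7.12% and 2.65% of all genes. Every APC-KI library was above every APC-WT library for 25 of them, a pattern seen for 23% of all genes tested (44.5% had no overlap in either direction), and the ranges of the other 5 overlapped.

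These calls rest on which libraries enter the fit. With the 4 libraries that lack Y-linked counts, where the lone APC-WT library has to be taken as varying like the APC-KI ones, 0 of the 30 passed in edgeR (lowest adjusted p = 0.0549), 19 were higher at an unadjusted p under 0.05, and the median log2 change was 1.14. In that fit 0.872% of all genes were called higher. With Y-linked counts as a covariate 0 passed as well and the median was 1.15, and 1.15% of all genes were called higher. Calls also fell to 6 without APC-WT replicate 2, to 12 without APC-KI replicate 1 and to 11 without APC-KI replicate 2. Over all genes tested, higher calls fell as well, from 12.5% with every library to 4.02%, 4.95% and 5.02% in these fits. Myh11, Mylk, Synm, Pgm5, Pdlim3 and Sgcd were called in each of the 6 fits that left out 1 library. Without the filter on low counts 15 passed, and Acta2, Actg2, Myl9, Tagln, Cnn1 and Des did not. Of the 32292 genes then tested 7.09% were called higher.

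Many smooth muscle genes are switched on by serum response factor and its partner myocardin, which act at a 10-base element called the CArG box (2 C, 6 bases that are A or T, 2 G, the same pattern on both strands). The upstream sequence of 4 of the genes that rose is shown here for that reason, as the 250 bases before the RefSeq start on build GRCm38.p6. Capitals mark CArG boxes, with up to 1 G or C allowed among the 6 central bases. Acta2 lies at chr19:34255374-34255623 on the minus strand, Myl9 at chr2:156775214-156775463 on the plus strand, Pdlim3 at chr8:45885237-45885486 on the plus strand and Synm at chr7:67759743-67759992 on the minus strand.
Acta2 promoter: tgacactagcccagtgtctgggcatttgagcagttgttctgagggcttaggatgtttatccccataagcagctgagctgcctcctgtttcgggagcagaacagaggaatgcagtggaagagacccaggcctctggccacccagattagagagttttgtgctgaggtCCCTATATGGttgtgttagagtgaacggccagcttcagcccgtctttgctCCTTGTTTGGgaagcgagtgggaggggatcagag
Myl9 promoter: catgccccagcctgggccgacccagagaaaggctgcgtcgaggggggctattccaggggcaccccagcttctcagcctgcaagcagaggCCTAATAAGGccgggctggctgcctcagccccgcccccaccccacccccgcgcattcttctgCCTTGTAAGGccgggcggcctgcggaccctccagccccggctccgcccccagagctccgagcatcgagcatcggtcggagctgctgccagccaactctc
Pdlim3 promoter: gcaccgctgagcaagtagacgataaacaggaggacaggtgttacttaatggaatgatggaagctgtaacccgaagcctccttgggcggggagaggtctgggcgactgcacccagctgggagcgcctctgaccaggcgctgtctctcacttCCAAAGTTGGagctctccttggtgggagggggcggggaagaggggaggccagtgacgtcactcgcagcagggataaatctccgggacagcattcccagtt
Synm promoter: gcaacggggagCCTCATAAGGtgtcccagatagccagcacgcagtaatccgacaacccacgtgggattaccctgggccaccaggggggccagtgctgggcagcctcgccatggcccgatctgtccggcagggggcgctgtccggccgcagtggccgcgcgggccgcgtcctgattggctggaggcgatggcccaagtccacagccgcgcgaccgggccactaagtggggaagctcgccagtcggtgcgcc

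Windows of 250 bases before to 50 after the start were matched in RefSeq for 26 of the 30 genes, and Myh11, Actg2, Tagln and Myocd had none here. A strict CArG box lay in the windows of 3 of the 26, Myl9, Ldb3 and Dmd, against 1.81% of 27025 genes. With up to 1 G or C in the centre, 8 of the 26 had one (Acta2, Myl9, Synm, Ldb3, Pdlim3, Dmd, Jph2 and Hspb6), against 11.3% of all genes. Acta2 had 2 of the relaxed kind, CCCTATATGG starting 84 bases and CCTTGTTTGG starting 34 bases before the start. In Myl9 the strict CCTAATAAGG started 161 bases and the relaxed CCTTGTAAGG 99 bases before it. The relaxed CCAAAGTTGG of Pdlim3 and CCTCATAAGG of Synm started 100 and 239 bases before. Of the 8 genes with a relaxed box, Acta2, Myl9, Synm and Pdlim3 were higher in APC-KI tumours, and Ldb3, Dmd, Jph2 and Hspb6 did not pass. The heptamer CTTTGAT, a core of the sites that Tcf7l2 and its relatives bind, was searched on both strands. It was found for 1 of the 26 genes, Hspb6, against 4.29% of all genes, and in another of that gene's start windows than the CArG box. Genes with several RefSeq starts have several windows, and a match in any of them counted.

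**Figure D1:**
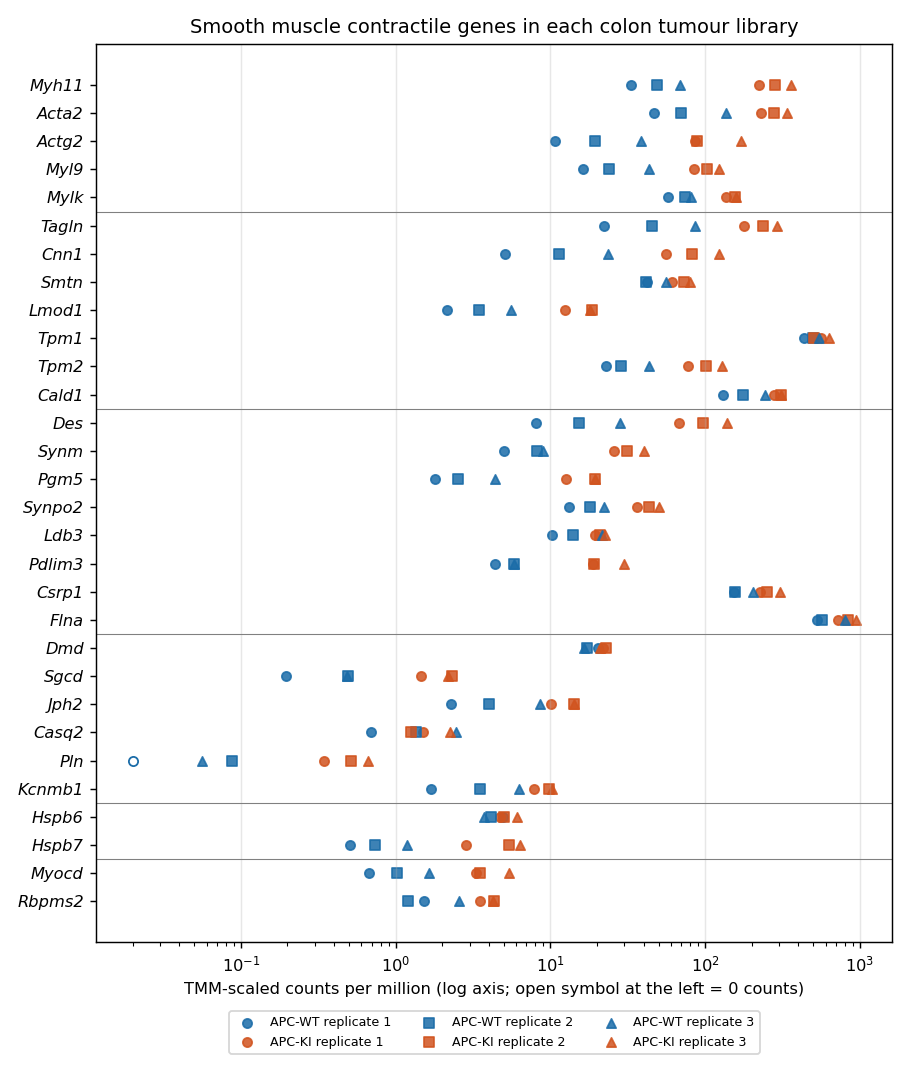
TMM-scaled CPM (log axis) of each of the 30 genes in each library, grouped by role. Blue symbols are APC-WT and orange APC-KI libraries, and shapes give replicates 1 to 3. APC-KI libraries lie to the right of all APC-WT libraries for 25 genes, and the ranges of Tpm1, Ldb3, Flna, Casq2 and Hspb6 overlap.

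All 5 genes of the motor itself rose. Myh11, the heavy chain of smooth muscle myosin, stood at 33.2, 48.4 and 69.1 CPM in APC-WT replicates 1 to 3 and at 222, 281 and 359 CPM in APC-KI replicates 1 to 3. Its lowest APC-KI library was 3.21 times its highest APC-WT library. Its log2 change came to 2.52 ± 0.31 (SE, adjusted p = 0.00658 in edgeR), and p was 0.1 in the exact two-sided permutation test, where 3 against 3 libraries cannot give less. Acta2, the alpha actin of smooth muscle and of activated fibroblasts, stood at 47.0, 69.4 and 135.5 CPM in APC-WT against 231, 277 and 336.5 CPM in APC-KI tumours (log2 change 1.75 ± 0.39, adjusted p = 0.0277). Its groups did not overlap, but APC-WT replicate 3 lay far above the other 2.

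Actg2, the gamma actin of visceral muscle, stood at 10.7, 19.5 and 38.5 CPM in APC-WT against 85.9, 88.4 and 171 CPM in APC-KI tumours. APC-KI replicate 3 was the high library there, and the log2 change was 2.33 ± 0.51 (adjusted p = 0.0271). The regulatory light chain Myl9 was at 16.2, 23.9 and 43.3 CPM against 84.0, 102 and 123 CPM (log2 change 1.89 ± 0.36, adjusted p = 0.0187). Mylk, the kinase that phosphorylates that chain and is also made outside muscle, rose least of the 5, from 70.9 ± 12.5 to 149.9 ± 12.2 CPM (SD, n = 3 each, log2 change 1.08 ± 0.14, adjusted p = 0.00696). Scaled by exon length, Acta2 was the most abundant of the 5 in both groups, at 38.2 and 128 CPM per kilobase, and Myh11 stood at 6.61 and 37.8 CPM per kilobase. Less than 0.5% of the 50-base words in the longest transcript of Acta2 or Myh11 occurred in another gene (0.35% and 0.4%), and 0% of those of Actg2, so reads of that length can separate the related actins.

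Of 7 thin filament genes 5 rose. Cnn1, the calponin of differentiated smooth muscle, had the largest change of the group. It stood at 5.10, 11.4 and 23.6 CPM in APC-WT against 55.4, 81.7 and 123 CPM in APC-KI tumours (log2 change 2.70 ± 0.58, adjusted p = 0.0256). Its APC-WT libraries spread 4.62-fold, the widest spread among the 29 genes with counts in all APC-WT libraries. Tagln, which encodes the actin-bundling protein SM22, stood at 22.3, 45.1 and 86.0 CPM against 177, 237 and 291.5 CPM (log2 change 2.20 ± 0.48, adjusted p = 0.0267). Exons of Tagln overlap those of the antisense model Gm48529 over 1241 bases and those of Pcsk7 over 108 bases, and whether reads were counted by strand is not stated in the sources used here.

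Lmod1, which nucleates actin filaments in smooth muscle, rose from 3.73 ± 1.74 to 16.2 ± 3.36 CPM (log2 change 2.12 ± 0.37, adjusted p = 0.0132). Smtn, which binds actin in contractile cells, rose by less, from 46.4 ± 7.80 to 71.1 ± 9.29 CPM (log2 change 0.62 ± 0.15, adjusted p = 0.0318), and did not pass with library totals as the only scaling. The tropomyosins parted. Tpm2 rose from 31.5 ± 10.5 to 101.8 ± 25.5 CPM, and its highest APC-WT library (43.2 CPM) lay below its lowest APC-KI library (76.8 CPM) (log2 change 1.69 ± 0.28, adjusted p = 0.013).

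Tpm1, which is made in many cell types through alternative promoters and exons, stood at 436, 495 and 539 CPM against 563, 508 and 634 CPM. Its groups overlapped and it did not pass (log2 change 0.21 ± 0.12, adjusted p = 0.224). The ratio of Tpm2 to Tpm1 within a library was between 0.0523 and 0.0801 in APC-WT and between 0.136 and 0.201 in APC-KI tumours. The exact two-sided permutation test of that log2 ratio gave p = 0.1 (adjusted p = 0.11 over 11 pairs chosen with values known). Cald1, the actin-binding caldesmon, stood at 130, 175 and 245 CPM against 276, 307 and 310.5 CPM. Its groups did not overlap, yet it missed the threshold (log2 change 0.70 ± 0.22, adjusted p = 0.0648), and DESeq2 called it. Gene-level counts do not separate the muscle and non-muscle isoforms of Tpm1 and Cald1.

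**Figure D2:**
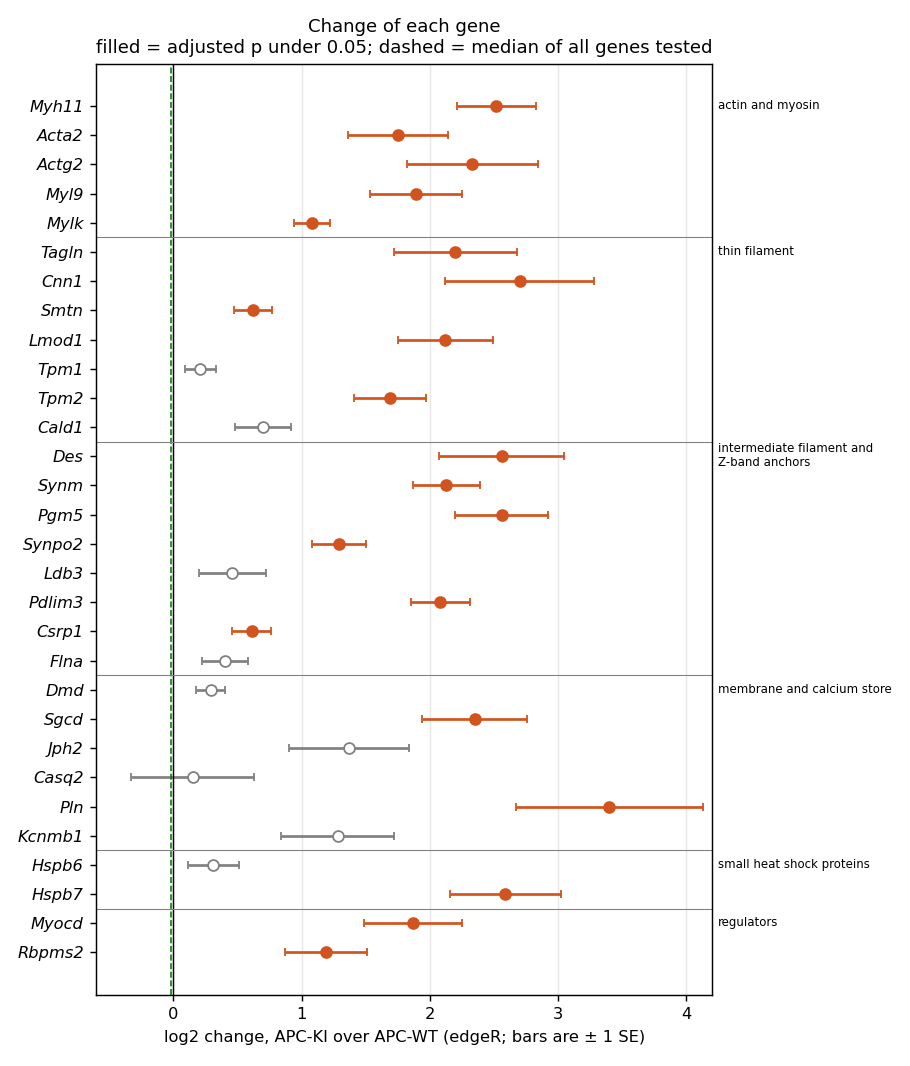
Log2 change of each gene, APC-KI over APC-WT, from edgeR, with bars of ± 1 SE. Filled symbols passed an adjusted p of 0.05 and open ones did not, and the dashed line is the median of all genes tested. The 21 filled symbols run from 0.61 for Csrp1 to 3.40 for Pln, and all 30 points lie above 0.

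Among 8 genes of intermediate filaments, dense bodies and plaques 6 rose. Des, the muscle intermediate filament desmin, stood at 8.11, 15.2 and 28.1 CPM in APC-WT against 67.2, 96.2 and 139 CPM in APC-KI tumours. The lowest APC-KI library was 2.39 times the highest APC-WT library, and the log2 change was 2.56 ± 0.49 (adjusted p = 0.0187). Synm, an intermediate filament protein that pairs with desmin, rose from 7.40 ± 2.10 to 32.3 ± 7.18 CPM (log2 change 2.13 ± 0.26, adjusted p = 0.00641). Pgm5, a plaque protein related to phosphoglucomutase, rose from 2.90 ± 1.32 to 17.1 ± 3.93 CPM (log2 change 2.56 ± 0.36, adjusted p = 0.00828).

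Pdlim3, which links alpha-actinin to other proteins, had the smallest adjusted p of the 30 genes (0.00532). It stood at 4.38, 5.84 and 5.85 CPM in APC-WT against 18.8, 19.1 and 29.96 CPM in APC-KI tumours (log2 change 2.08 ± 0.23). Its highest APC-WT library was 1.34 times its lowest. Synpo2, an actin-bundling protein of dense bodies, rose 2.44-fold (adjusted p = 0.0115) and Csrp1, a LIM protein of actin filaments, 1.53-fold (adjusted p = 0.0366), the latter not with library totals only. Flna, the widely made actin crosslinker filamin A, stood at 529, 566 and 794 CPM against 719.5, 836 and 945 CPM, and did not pass (log2 change 0.40 ± 0.18, adjusted p = 0.146). Ldb3, a Z-band PDZ protein, stood at 10.3, 14.1 and 21.5 CPM against 19.3, 20.96 and 22.5 CPM and did not pass (log2 change 0.46 ± 0.26, adjusted p = 0.237). For both, APC-WT replicate 3 lay within the APC-KI range. Without the libraries that hold Y-linked counts the Ldb3 log2 change was −0.038.

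Of 6 genes of the membrane and the calcium store, Sgcd and Pln passed. Sgcd, the delta-sarcoglycan of muscle membranes, stood at 0.195, 0.492 and 0.486 CPM in APC-WT against 1.46, 2.29 and 2.19 CPM in APC-KI tumours (log2 change 2.35 ± 0.41, adjusted p = 0.0136). Pln encodes phospholamban, which restrains the calcium pump of the sarcoplasmic reticulum. It was rare, with 0, 5 and 3 counts in APC-WT and 18, 27 and 37 counts in APC-KI libraries. Its fitted log2 change of 3.40 ± 0.73 (adjusted p = 0.024) therefore rests on 8 APC-WT counts, and its exons overlap those of Cep85l on the other strand over 141 bases.

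Dmd, dystrophin, stood at 20.2, 17.2 and 16.6 CPM against 21.9, 23.0 and 20.9 CPM. The ranges did not overlap, but the change was small and did not pass (log2 change 0.29 ± 0.11, adjusted p = 0.11). Jph2, which holds the store close to the surface membrane, and Kcnmb1, the beta subunit of the large-conductance potassium channel, had larger changes with wide APC-WT spreads. Jph2 stood at 2.26, 4.01 and 8.60 CPM against 10.1, 14.3 and 14.1 CPM (fitted fold 2.59, adjusted p = 0.0829). Kcnmb1 stood at 1.69, 3.50 and 6.26 CPM against 7.82, 9.73 and 10.3 CPM (log2 change 1.28 ± 0.44, adjusted p = 0.0842). DESeq2 and limma-voom called both.

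Casq2, the calcium-binding protein calsequestrin 2, was the gene nearest to no difference. Its libraries stood at 0.690, 1.35 and 2.47 CPM in APC-WT against 1.498, 1.26 and 2.24 CPM in APC-KI tumours, with full overlap (log2 change 0.15 ± 0.48, adjusted p = 0.835). Without the libraries that hold Y-linked counts the Casq2 log2 change was −0.567, and it also turned negative without APC-WT replicate 1 (−0.196) or APC-KI replicate 3 (−0.126).

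The small heat shock proteins differed from each other. Hspb7, a chaperone of striated and smooth muscle filaments, stood at 0.510, 0.739 and 1.18 CPM in APC-WT against 2.84, 5.39 and 6.37 CPM in APC-KI tumours (log2 change 2.59 ± 0.43, adjusted p = 0.012). Hspb6, which relaxes smooth muscle when phosphorylated, stood at 4.90, 4.12 and 3.74 CPM against 4.71, 5.01 and 6.08 CPM, overlapped and did not pass (log2 change 0.31 ± 0.20, adjusted p = 0.292). Its exons overlap those of Proser3 and Lin37 on the other strand over 122 and 3 bases. The ratio of Hspb7 to Hspb6 was between 0.104 and 0.315 in APC-WT and between 0.604 and 1.08 in APC-KI libraries (exact permutation p = 0.1, adjusted p = 0.11 over the 11 pairs).

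Both regulators rose. Myocd, the cofactor myocardin, stood at 0.675, 1.02 and 1.65 CPM in APC-WT against 3.30, 3.48 and 5.37 CPM in APC-KI tumours (log2 change 1.87 ± 0.38, adjusted p = 0.0216). Rbpms2, an RNA-binding protein of visceral muscle precursors, stood at 1.51, 1.20 and 2.58 CPM against 3.52, 4.30 and 4.23 CPM (log2 change 1.19 ± 0.32, adjusted p = 0.0431). Of the 50-base words of Rbpms2, 16.6% also occur in Gm3470, so the split of its reads is uncertain.

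The genes varied together among libraries of the same group. Among the 3 APC-WT libraries, replicate 3 was the highest for 26 of the 30 genes and replicate 1 the lowest for 26. Of all genes tested, 38.6% were highest in replicate 3 and 40.1% lowest in replicate 1. Among APC-KI libraries, replicate 3 was the highest for 25 and replicate 1 the lowest for 27 of the 30, against 35.8% and 30.1% of all genes. The 30 genes together held 1583, 1854 and 2497 CPM in APC-WT against 3164, 3614 and 4357 CPM in APC-KI replicates 1 to 3. The ratio of highest to lowest library had a median of 2.16 in APC-WT and 1.48 in APC-KI over these genes, and 1.30 and 1.26 over all genes with counts in every library of the group.

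APC-WT replicate 3, the one APC-WT library without Y-linked counts, thus lay nearest to the APC-KI group. Against that library alone, the APC-KI mean ran from 0.676 times its level for Casq2 to 9.03 times for Pln, the latter on few counts. It was 4.16 times as high for Myh11, 4.13 times for Hspb7, 4.07 times for Sgcd and 3.92 times for Pgm5. For Acta2 it was 2.08 times, for Cald1 1.22 times, for Tpm1 and Flna 1.05 times each, and for Ldb3 0.976 times as high. Its place among the APC-WT libraries and the absence of Y-linked counts cannot be told apart.

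Ratios within a library need no scaling factor, and they describe how far each gene moved against Myh11. Myh11 itself was 5.73-fold higher in APC-KI tumours, so a gene that rose less or stayed level falls in this ratio. For 28 genes with counts in every library, the log2 ratio to Myh11 was taken. For 20 of them every APC-KI value was below every APC-WT value, for 8 the groups overlapped and for 0 were all APC-KI values above. The share of all genes tested with such a pattern against Myh11 was not computed, so whether the count of 20 is particular to these genes was not tested. The median log2 change over all genes tested was −0.016, against 2.52 for Myh11, so most genes fall in this ratio on average. Each of the 20 had an exact two-sided permutation p of 0.1, the smallest the design allows, and an adjusted p of 0.14. Acta2 fell from 142%, 143% and 196% of Myh11 counts to 104%, 98.4% and 93.6%, a difference of −0.68 in log2 ratio. Mylk went from 172%, 154% and 118% to 61.3%, 54.9% and 44.3% of Myh11, a difference of −1.46. Tpm1, Casq2, Dmd, Hspb6, Flna and Ldb3 had the most negative differences, at −2.34, −2.26, −2.26, −2.24, −2.13 and −2.04. Their own log2 changes ran from 0.15 for Casq2 to 0.46 for Ldb3, and none of them passed in edgeR. Neither a rise nor a fall of their own is thus shown. The changes of Casq2 and Ldb3 turned negative without the libraries that hold Y-linked counts.

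The genes that overlapped in this ratio were Actg2, Tagln, Cnn1, Lmod1, Des, Pgm5, Sgcd and Hspb7. Their differences ran from −0.34 for Lmod1 to 0.34 for Cnn1. Actg2 was at 32.2%, 40.3% and 55.7% of Myh11 in APC-WT and 38.7%, 31.4% and 47.7% in APC-KI tumours. Des was at 24.4%, 31.5% and 40.6% against 30.3%, 34.2% and 38.6%. Between the 2 smooth muscle actins the ranges did not overlap: Acta2 was 4.40, 3.55 and 3.52 times Actg2 in APC-WT counts and 2.69, 3.13 and 1.97 times in APC-KI counts (difference −0.58 in log2 ratio, exact permutation p = 0.1, adjusted p = 0.11 over 11 pairs).

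**Figure D3:**
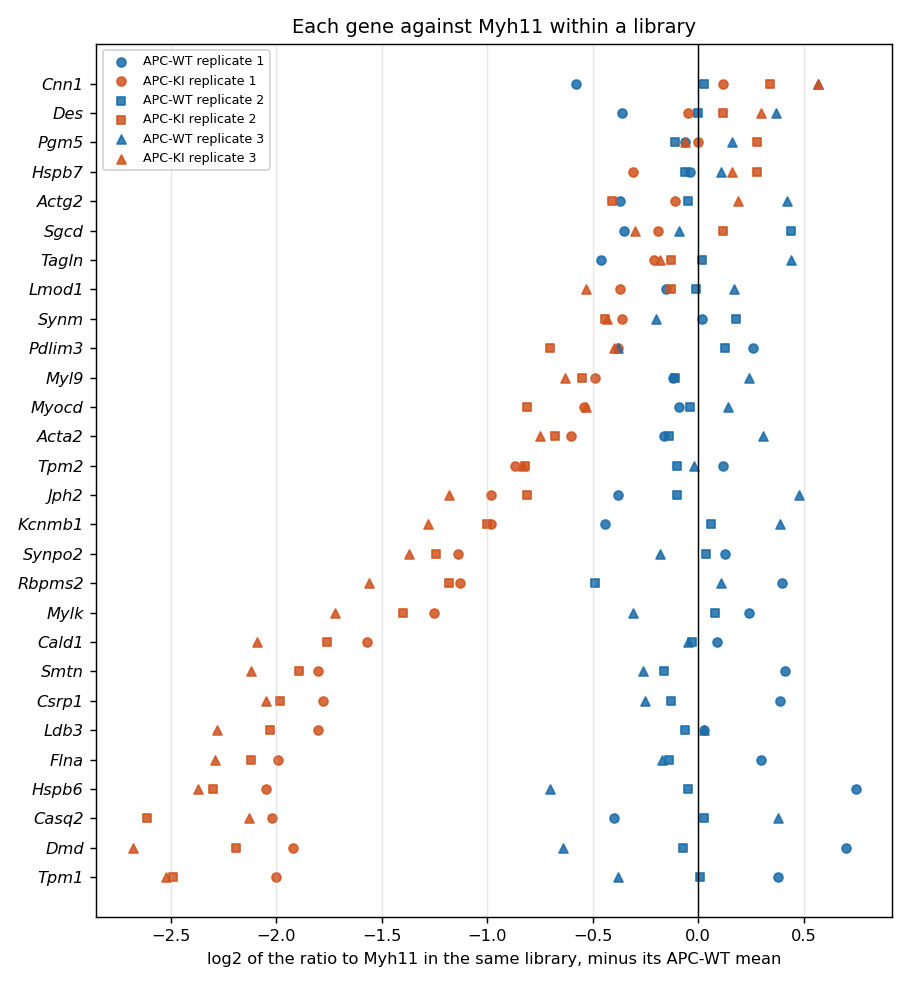
Log2 ratio of each of 28 genes to Myh11 in the same library, minus the mean of the APC-WT libraries. Blue symbols are APC-WT and orange APC-KI libraries. Genes from Lmod1 up mix the 2 colours, whereas 20 genes below have all APC-KI values to the left, down to −2.34 on average for Tpm1.

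Genes that control contraction rose in part. Of 17 genes of the kinase, phosphatase and cyclic GMP arms, 8 were higher and 0 lower (edgeR, 12.5% of all genes higher), and the median log2 change was 0.52. The soluble guanylate cyclase subunits Gucy1a1 and Gucy1b1, receptors for nitric oxide, were 3.61-fold and 2.34-fold higher (adjusted p = 0.0189 and 0.0291), with Gucy1a1 at 1.54, 3.64 and 4.04 CPM in APC-WT against 9.32, 12.5 and 11.4 CPM in APC-KI tumours. Ppp1r12b, a targeting subunit of myosin phosphatase, was 1.84-fold and its relative Ppp1r12a 1.23-fold higher (adjusted p = 0.00732 and 0.03). The phosphodiesterases Pde5a and Pde3a were 1.43-fold and 2.34-fold higher, Calm3 1.49-fold and the kinase Rock2 1.29-fold. The phosphatase inhibitor Ppp1r14a and the cyclic GMP kinase Prkg1 did not pass (log2 change 0.88 and 0.84, adjusted p = 0.136 and 0.0756). At an unadjusted p under 0.05, 0 genes were lower, and DESeq2 and limma-voom called 0 lower. Higher calls in this list fell to 1 without APC-WT replicate 2 and to 2 without APC-KI replicate 1 or 2.

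Of 20 calcium channel, pump and receptor genes tested, 12 were higher and 0 lower, with a median log2 change of 0.69. Trpc4 did not pass the filter on low counts. The calcium sensor Stim1 rose from 62.4 ± 1.53 to 100.5 ± 3.63 CPM (adjusted p = 0.00365). Kcnma1, the pore of the channel that Kcnmb1 modulates, rose from 8.22 ± 1.01 to 18.6 ± 1.90 CPM (adjusted p = 0.00621). The ryanodine receptors Ryr2 and Ryr3 were 4.41-fold and 5.55-fold higher (adjusted p = 0.00992 and 0.012). The receptors Tacr2 for tachykinins, Ednra for endothelin, Ptger3 for prostaglandin E2 and the channel subunit Cacnb2 were 8.64-fold, 2.18-fold, 3.65-fold and 2.91-fold higher, Tacr2 from between 0.030 and 0.168 CPM. Chrm3, the muscarinic receptor that drives contraction, did not pass and stood at 3.90, 3.24 and 2.86 CPM against 1.84, 1.87 and 0.907 CPM (log2 change −1.11, adjusted p = 0.0541). It was the 1 gene of the list that was lower at an unadjusted p under 0.05, and DESeq2, limma-voom, library totals only and the fit without a filter on low counts called it lower. Higher calls fell to 5 without APC-WT replicate 2 and to 7 without APC-KI replicate 2.

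Of 27 genes of the dystrophin complex, caveolae and plaques 8 were higher and Sntb1, a syntrophin, was lower by 0.86 on a log2 scale (adjusted p = 0.0385). The median log2 change was 0.28. Sspn, sarcospan, was 3.57-fold, Sgca 3.00-fold and Sgce 2.21-fold higher. The plaque and caveolar genes Tns1, Cav1 and Tln1 were between 1.34-fold and 1.79-fold higher. Utrn, the relative of dystrophin made in most tissues, did not pass (log2 change −0.03, adjusted p = 0.881). Higher calls fell to 3 without APC-WT replicate 2, APC-KI replicate 1 or APC-KI replicate 2, and to 4 without APC-KI replicate 3. Sntb1 was not called lower without APC-WT replicate 1, APC-WT replicate 2, APC-KI replicate 1 or APC-KI replicate 2, or with the replicate block or either handling of the Y-linked counts.

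Of 14 transcription factors and cofactors of the muscle programme 4 were higher and 0 lower, with a median log2 change of 0.29. Srf itself stood at 44.7, 40.4 and 46.6 CPM in APC-WT against 44.3, 48.1 and 46.6 CPM in APC-KI tumours and did not pass (log2 change 0.08, adjusted p = 0.524). The SRF partners Mrtfa and Mrtfb did not pass (log2 change 0.30 and −0.24, adjusted p = 0.0604 and 0.0565). Mrtfb was the 1 gene of the list that was lower at an unadjusted p under 0.05. DESeq2, library totals only and the fit without APC-KI replicate 3 called it lower, and limma-voom called 0 lower. Fhl1 was 2.19-fold, Foxf1 1.42-fold and Mef2c 1.502-fold higher. Klf4, which is also made in epithelium and represses muscle genes, was 1.98-fold higher (adjusted p = 0.0236). Higher calls fell to 1 without APC-WT replicate 2 or APC-KI replicate 2, and to 2 without APC-WT replicate 1, APC-KI replicate 1 or APC-KI replicate 3, or with library totals only. With the 4 libraries that lack Y-linked counts, edgeR called 1 gene higher in the calcium and receptor list and 0 in the other related lists.

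Relatives of the contractile genes that most cells make gave another picture. Of 16 such genes 3 were higher (among them Tpm3, 1.31-fold, and Myl6, 1.35-fold) and 2 lower (Cnn3 and Hspb1, by 0.49 and 0.56 on a log2 scale), with a median log2 change of 0.10. Myh9, the heavy chain of non-muscle myosin, stood at 1084, 1247 and 1301 CPM against 1251, 1386 and 1243 CPM (log2 change 0.10, adjusted p = 0.503). The ratio of Myh11 to Myh9 was between 0.0306 and 0.0531 in APC-WT and between 0.177 and 0.289 in APC-KI libraries (exact permutation p = 0.1, adjusted p = 0.11 over the 11 pairs). Higher calls in this list fell to 1 without APC-WT replicate 1 and to 0 without APC-WT replicate 2, APC-KI replicate 1 or APC-KI replicate 2, rose to 5 without APC-KI replicate 3, and were 1 with library totals only. Lower calls fell to 0 without APC-WT replicate 2, APC-KI replicate 1 or APC-KI replicate 2 and with either handling of the Y-linked counts. They fell to 1 without APC-WT replicate 1 (Hspb1) or APC-WT replicate 3 (Cnn3), with RLE factors (Hspb1) and with the replicate block (Hspb1). DESeq2 and library totals only called 3 lower, with Myh10 as the third.

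**Figure D4:**
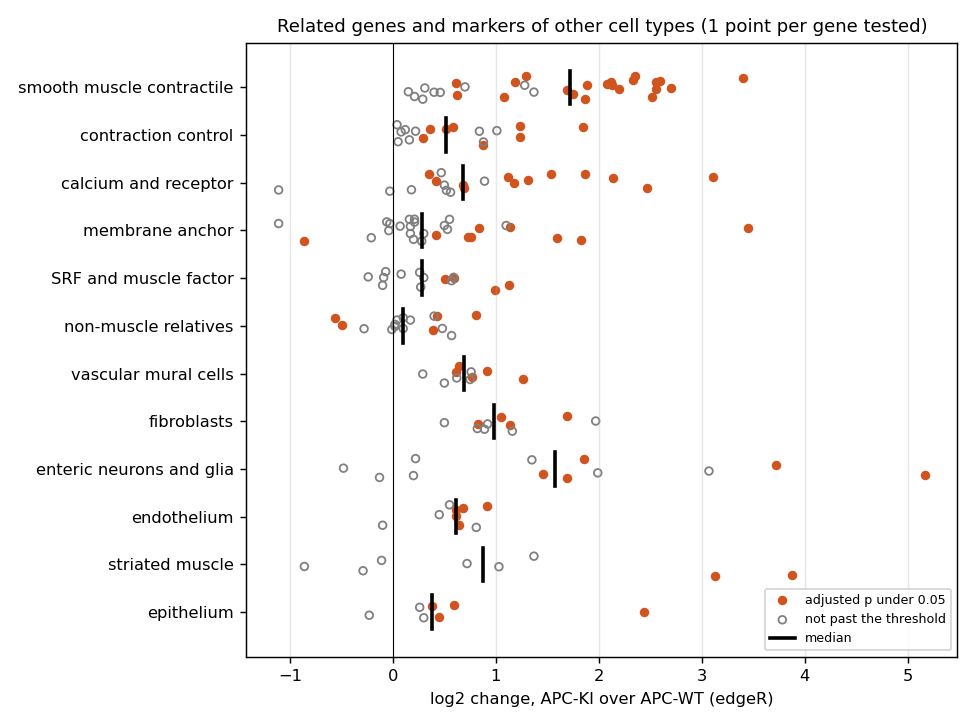
Log2 change of each gene tested in the contractile list, in related lists and in marker lists of other cell types, 1 point per gene. Orange points passed an adjusted p of 0.05, open points did not, and black bars are list medians, which are 1.72 for the contractile list and 0.10 for the non-muscle relatives.

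Markers of other cell types in the wall moved as well. Of 10 markers of vascular mural cells 5 were higher and 0 lower (12.5% and 7.63% of all genes tested), with a median log2 change of 0.70, and they summed to between 169 and 256 CPM in APC-WT and between 310 and 377 CPM in APC-KI libraries. Abcc9 was 2.40-fold, Rgs4 1.88-fold, Kcnj8 1.71-fold, Rgs5 1.56-fold and Mcam 1.53-fold higher. The defining markers Cspg4 and Notch3 did not pass (log2 change 0.75 and 0.29, adjusted p = 0.085 and 0.182). Of 10 fibroblast markers 4 were higher (Dcn 3.23-fold, with Mmp2, Postn and Thy1), with a median of 0.98 and sums of 1003 to 2654 CPM against 3122 to 4277 CPM. Pdgfra and Col1a1 did not pass (log2 change 0.50 and 0.92, adjusted p = 0.165 and 0.24). Of 9 endothelial markers 5 were higher (Vwf 1.525-fold, with Tie1, Plvap, Ptprb and Erg), with a median of 0.61 and sums of 223 to 284.5 CPM against 327 to 409 CPM. Pecam1 and Cdh5 did not pass (log2 change 0.55 and −0.10).

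Of 12 enteric neuron and glia markers tested 5 were higher and 0 lower (among the higher Prph, 3.63-fold, with Snap25, Nos1 and S100b). Their median log2 change was 1.57, near the 1.72 of the contractile genes, with single genes from −0.48 to 5.17. All markers of this list summed to 25.1 to 49.2 CPM in APC-WT against 40.7 to 56.0 CPM in APC-KI libraries, so the sums overlapped. Of 3 markers of interstitial cells of Cajal, the pacemakers of gut muscle, Etv1 was 2.61-fold higher, Ano1 did not pass (log2 change −0.15), and Kit, also a mast cell gene, was lower by 0.77 on a log2 scale. Of the 4 mesothelial markers Upk3b, Wt1 and Lrrn4 reached at most 0.154 CPM in any library, and Msln did not pass (adjusted p = 0.408). Striated muscle markers were scarce: Myh4 and Myog had 0 counts in all libraries, the list summed to 10.0 to 14.0 CPM against 15.4 to 15.8 CPM, and Ckm and Actc1 were higher, reaching 1.74 and 0.307 CPM. Acta1 did not pass (log2 change 0.72, adjusted p = 0.235). Of 7 epithelial markers Krt8 (1.36-fold), Krt19, Krt20 and Vil1 were higher and Epcam, Cdh1 and Krt18 did not pass (log2 change 0.30, 0.26 and −0.23), with sums of 7483 to 8680 CPM against 9531 to 11360 CPM. The part of any of these cells in the muscle gene values was not tested.

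The calls of these marker lists also rest on single libraries. Over all genes, 4.02% to 12.9% were called higher in the fits that left out 1 library. The fit on the 4 libraries that lack Y-linked counts keeps 1 APC-WT library, so its marker counts are not given here. With Y-linked counts as a covariate, edgeR called 1 mural cell marker higher and 0 markers in the other lists. At an unadjusted p under 0.05 that fit had 3 mural cell, 3 fibroblast, 4 enteric, 3 endothelial, 2 striated muscle, 1 Cajal cell and 2 epithelial markers higher. On the lower side it had 1 enteric, 1 endothelial, 1 Cajal cell and 1 epithelial marker. The 5 mural cell calls fell to 1 without APC-WT replicate 2 or APC-KI replicate 2 and to 2 without APC-KI replicate 1. The 4 fibroblast calls fell to 0 without APC-WT replicate 2, to 1 without APC-KI replicate 2 and to 2 without APC-WT replicate 1, APC-KI replicate 1 or APC-KI replicate 3, and rose to 8 without APC-WT replicate 3. For endothelium 1 of 5 calls was left without APC-WT replicate 1 or 2 or APC-KI replicate 2, and 3 without APC-KI replicate 1 or 3. Enteric neuron and glia calls fell to 2 without APC-WT replicate 2 or APC-KI replicate 1 and to 3 without APC-KI replicate 2. Epithelial calls fell to 0 without APC-WT replicate 1, APC-WT replicate 2, APC-KI replicate 1 or APC-KI replicate 2, and striated muscle calls to 1 without any 1 of these. Etv1 was not called without APC-WT replicate 2, APC-KI replicate 1 or APC-KI replicate 2, nor Kit without APC-WT replicate 2, APC-WT replicate 3, APC-KI replicate 1 or APC-KI replicate 3. In the edgeR fit with all 6 libraries, TMM factors and group alone, Kit was the 1 marker of these lists lower at an unadjusted p under 0.05. It was also the 1 marker that DESeq2 or limma-voom called lower.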

How the data were processed

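RNA sequencing covered 6 bulk mouse colon tumours. Per the labels' protocols, tumours were pinched off the muscle beneath them and libraries were made with a stranded TruSeq mRNA kit. Trim Galore 0.6.4, cutadapt 2.5, STAR, DESeq2 1.37.6 and the builds GRCm38 and mm10 appear in the submitters' processing notes. For the read counter, its strand option and the annotation, nothing is given in the sources used here. Values deposited by the authors are raw counts per Ensembl gene. GENCODE M21 gave symbols for 52093 of 53700 identifiers. Since 35 identifier versions equalled those of M21, exon lengths and overlaps from it are approximate.

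Low genes were removed with filterByExpr, TMM factors were computed, and edgeR 4.0.16 (robust glmQLFit, glmQLFTest, R 4.3.3) was fitted with group as the sole term. Benjamini-Hochberg adjustment ran over 19127 genes. All 30 genes are named. From the other lists, called genes (up to 8 by smallest p) and the first 3 markers of each cell type are named, and any further gene was chosen after its values were seen. Some genes of these lists are counted but not reported here by name. The members, lists and alternatives were chosen with earlier results of these data known, and so were the ratio pairs. Alternatives were DESeq2 1.42.0, limma-voom (limma 3.58.1), RLE factors, library totals, no filter, a filter that needs a CPM over 1 in 3 libraries, the replicate block, each library left out, and Y-linked counts as a covariate or as a reason to leave libraries out. The steps were tested on simulated counts of 18529 genes, of which 97 were changed 2-fold and 95 4-fold. Of these, 4.12% and 41.1% were called in the right direction, and 4.44% of 45 calls were false. A gene that did not pass is therefore not shown to be unchanged. Calls in the real data covered 20.1% of genes, so these rates need not carry over. Chi-square values per gene between libraries of a group were 40.1 to 114, beyond sampling noise, and no libraries were merged.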

Additional observations from a re-analysis of the deposited data

How the results depend on the processing

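Without 1 library at a time, higher calls ranged from 6 to 26 of the 30 contractile genes, from 1 to 8 of the contraction control genes, from 5 to 9 of the calcium and receptor genes, from 3 to 11 of the membrane anchor genes, from 1 to 4 of the SRF and muscle factor genes and from 0 to 5 of the non-muscle relatives. With Y-linked counts as a covariate these counts were 0, 0, 2, 0, 0 and 0, and with the 4 libraries that lack Y-linked counts 0, 0, 1, 0, 0 and 0 (edgeR). The members median log2 change was 1.146 with the covariate and 1.143 in the fit on 4 libraries. With the covariate 19 of the 30 genes were higher at an unadjusted p under 0.05. Library totals as the only scaling moved the median of all genes by −0.116, gave 1978 higher and 2844 lower calls over all genes against 2388 and 1459, and left 19 of the 30, 2 SRF and muscle factor genes and 1 non-muscle relative called higher. The replicate block left 19 of the 30 (Pln and Rbpms2 did not pass), 4 contraction control, 7 calcium and receptor, 5 membrane anchor, 2 SRF and muscle factor genes and 0 non-muscle relatives. Over all genes it gave 1195 higher and 465 lower calls. Over all genes tested, same-numbered libraries did not deviate together (correlations 0.03, −0.07 and −0.18). The 30 genes did follow the numbers in both groups. Replicate 3 was the highest for 26 in APC-WT and 25 in APC-KI, and replicate 1 the lowest for 26 and 27. Whether same-numbered libraries share more than a number was not tested. RLE factors, DESeq2, limma-voom, no filter and the stricter filter gave 21, 24, 23, 15 and 20 of the 30. In none of these settings was a contractile gene called lower.

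The Ldb3 log2 change turned to −0.036 with the covariate and −0.038 without the Y-linked libraries, and the Casq2 log2 change to −0.564 and −0.567, and to −0.196 without APC-WT replicate 1 and −0.126 without APC-KI replicate 3. Among ratios whose groups overlapped, the Des to Myh11 log2 ratio turned to −0.065 without APC-WT replicate 1, the Sgcd to Myh11 log2 ratio to 0.099 without APC-WT replicate 2, and the Tagln to Myh11 log2 ratio to 0.048 without APC-WT replicate 3. The Actg2 to Myh11 log2 ratio turned to 0.103 without APC-WT replicate 3 and 0.044 without APC-KI replicate 2, the Pgm5 to Myh11 log2 ratio to −0.027 without APC-KI replicate 2, and the Hspb7 to Myh11 log2 ratio to −0.074 and −0.018 without APC-KI replicates 2 and 3. Without 1 library at a time, the highest Casq2 log2 change was 0.71. The far end of the same range was −0.292 for the Actg2 to Myh11 log2 ratio, −0.398 for the Tagln to Myh11 log2 ratio, 0.301 for the Des to Myh11 log2 ratio, 0.158 for the Pgm5 to Myh11 log2 ratio, −0.296 for the Sgcd to Myh11 log2 ratio and 0.217 for the Hspb7 to Myh11 log2 ratio. The cause was not tested.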
